A study of Mus musculus with 4 samples.

Results

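The genes described here make and use the small thiol glutathione, or belong to the peroxiredoxin, thioredoxin, glutaredoxin and superoxide dismutase families, with catalase. They were chosen by gene symbol alone, from the array annotation, as all probe sets that name exactly 1 gene with a symbol of the Gst (alpha, mu, omega, pi, theta, kappa and zeta), Mgst, Gpx, Prdx, Txn, Glrx and Sod families, or Cat, Gsr, Gss, Gclc or Gclm. This gave 65 probe sets for 49 genes, of 10833 probe sets that name 1 gene, and each gene is represented by its probe set with the highest mean signal. Testis RNA was measured on 4 Affymetrix mouse expression arrays, 1 per sample. Tslc1+/+ and Tslc1-/- males gave 2 samples each, at an age of 16 weeks and on the strain C57BL/6J, with no treatment named in the labels. Tslc1, now called Cadm1, encodes an adhesion molecule of the immunoglobulin superfamily found on germ cells. The labels give neither the deleted part of the gene nor a statement that replicates are different animals. The p-values therefore rest on a spread between samples that may be technical.

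Glutathione is built from glutamate, cysteine and glycine by glutamate-cysteine ligase and glutathione synthetase, and its oxidised form is reduced again by glutathione reductase at the cost of NADPH. Glutathione peroxidases and glutathione transferases spend it on peroxides and on reactive organic molecules, while peroxiredoxins remove peroxides with electrons from thioredoxin, which thioredoxin reductases keep reduced. In the testis these systems protect germ cell membranes and DNA, and some of their proteins become part of the sperm itself.

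On the 2 tested Cadm1 probe sets the change was -3.01 and -2.36 on the log2 scale (limma, Benjamini-Hochberg adjusted p = 2.31e-05 and 0.000183), lower on both Tslc1-/- arrays, as the labels state. The deleted exons are not given, so a probe set outside them checks nothing. All changes are differences of mean log2(signal + 50), Tslc1-/- minus Tslc1+/+, a scale on which dim probe sets seem to change less than they do. Elongating spermatid markers were lower in Tslc1-/-: 5 of 9 passed and none rose, and their summed signal was 548872 and 555416 in Tslc1+/+ against 400351 and 373111 in Tslc1-/-. Round spermatid markers followed, with 4 of 6 lower and summed signals of 186010 and 193323 against 123808 and 126681. In whole testis, fewer cells of a type and less RNA per cell cannot be told apart. None of the Sertoli (6 tested), Leydig (7), spermatogonial (5) or macrophage (4) markers passed, while 1 of 5 meiotic and 1 of 6 peritubular myoid markers fell. Endothelial markers, of which 2 were tested and neither passed, had summed signals of 1868 and 1584 against 706 and 755.

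None of the 44 redox genes that could be tested passed the threshold of an adjusted p under 0.05 over all 7975 tested probe sets, where 1.08% passed (limma, Benjamini-Hochberg). The smallest adjusted p was 0.131, for Gsr. At an unadjusted p under 0.05 there were 9 of the 44 (20.5%), against 10.0% of all tested probe sets. This gap depended on the arrays and on the settings, and shrank without Tslc1-/- replicate 2. With no filter on dim probe sets there were 6 of 49 (12.2%, against 8.53% of all). Without the intensity trend there were 3 of 44 (6.82%, against 8.0%). The 44 are the brightest probe set of each gene, while all tested probe sets can hold several of a gene. Of the 9, 4 were lower in Tslc1-/- (Gsr, Sod1, Txndc5 and Gstm5; 5.22% of all tested probe sets were lower by that rule) and 5 were higher (Prdx3, Gstt2, Txnip, Mgst3 and Txndc12; 4.80% of all). The genotypes did not overlap for 25 of the 44, or 56.8%, against 40.0% of all tested probe sets, 13 with Tslc1-/- lower and 12 with it higher. The median change of the 44 was -0.06, with 23 below 0 and 21 above, beside a median of 0.02 over all tested probe sets. The other 5 genes, Gpx5, Gpx7, Gsta1, Gsto1 and Gstt1, had a mean signal under 200 and were not tested.

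**Figure D1:**
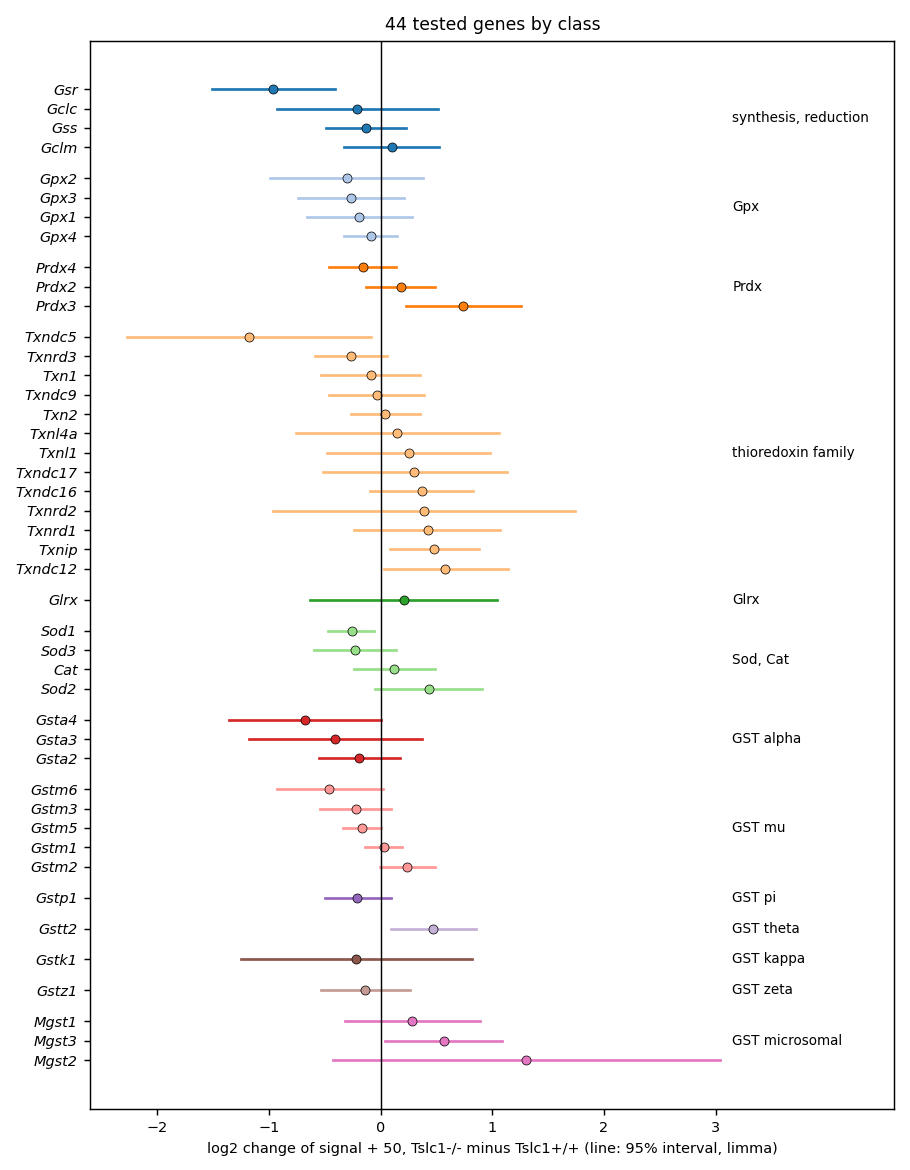
Log2 change of signal + 50 between Tslc1-/- and Tslc1+/+ testis (x axis) for the 44 tested genes, grouped by class; points are the difference of means over 2 arrays each, lines the 95% interval from limma. The intervals of 9 genes leave out 0, among them Gsr at -0.96 and Prdx3 at 0.74, but none of the 44 passed after adjustment.

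The precision depends on the signal. The median spread between arrays of a genotype was 0.43 on the log2 scale for probe sets of mean signal 200 to 500 and 0.08 in the brightest range, over 5000, and 8 of the 44 genes lay in the first range and 5 in the last. For 30 of the 44 genes the 95% interval lay inside a change of -1 to 1 on the scale used here. For the other 14 it included -1 or 1.

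Glutathione synthesis and reduction were represented by 4 genes, all tested. Gsr, the reductase that regenerates glutathione from its oxidised form, read 1511.5 and 1278.2 in Tslc1+/+ against 855.4 and 553.4 in Tslc1-/-. Both Tslc1-/- arrays lay below both Tslc1+/+ arrays, and the means of 1394.8 ± 165 and 704 ± 214 (SD, n = 2) differed 1.98-fold. The log2 change was -0.96 with a standard error of 0.247 (95% interval -1.51 to -0.41; limma, unadjusted p = 0.00293, adjusted p = 0.131), so it did not pass. Its adjusted p ranged from 0.0917 to 0.545 over the alternative settings without a replicate block, and the change was between -1.26 and -0.67 with any 1 array left out.

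The synthesis enzymes overlapped between the genotypes. Gss, which joins glycine to the dipeptide, read 2046.2 and 2060.6 in Tslc1+/+ against 2055.6 and 1706.5 in Tslc1-/-, a change of -0.13 (95% interval -0.49 to 0.23; limma, adjusted p = 0.841). Changes were -0.21 for Gclc, the catalytic subunit of the rate-limiting ligase, and 0.10 for Gclm, its modifier subunit. The intervals, -0.93 to 0.51 for Gclc and -0.33 to 0.52 for Gclm, lay inside -1 to 1 on the scale used here. On that scale dim probe sets seem to change less than they do, so a 2-fold fall in the Gclc signal itself was not left out.

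Many genes of glutathione synthesis and conjugation are known targets of the transcription factor Nrf2, which binds the antioxidant response element. Its core, TGACNNNGC, was searched on both strands in RefSeq promoter windows of assembly GRCm38.p6, from 250 bases before to 50 after the gene start. Windows were found for 42 of the 49 genes. The core occurred in 7 of their 55 windows (12.7%) and in 12.4% of all 32851 windows, which are nearly equal shares. The 7 matches are shown because they include the well known Nrf2 targets Gclm and Txnrd1. They also include 3 of the 9 genes with an unadjusted p under 0.05. Counted by gene, the core occurred in 16.7% of the members with a window and in 14.0% of all genes with one. Whether it is more frequent among the 9 was not tested. Each line runs 5′ to 3′ on the gene's strand with 30 bases on either side, and capitals mark the core or, where it lies on the opposite strand, its reverse complement.
Gclm, chr3:122245393-122245461, plus strand: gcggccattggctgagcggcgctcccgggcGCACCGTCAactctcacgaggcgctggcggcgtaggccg
Txnrd1, chr10:82859084-82859152, plus strand: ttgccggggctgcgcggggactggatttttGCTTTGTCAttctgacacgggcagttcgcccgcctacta
Sod1, chr16:90220676-90220744, plus strand: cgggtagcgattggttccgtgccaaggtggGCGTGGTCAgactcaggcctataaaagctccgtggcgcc
Gstm5, chr3:107895782-107895850, plus strand: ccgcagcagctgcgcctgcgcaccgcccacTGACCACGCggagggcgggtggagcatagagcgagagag
Gsta3, chr1:21240434-21240502, plus strand: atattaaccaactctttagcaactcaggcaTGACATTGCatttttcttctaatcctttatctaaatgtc
Mgst1, chr6:138140441-138140509, plus strand: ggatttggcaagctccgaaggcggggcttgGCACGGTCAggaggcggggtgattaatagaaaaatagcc
Txndc5, chr13:38528014-38528082, minus strand: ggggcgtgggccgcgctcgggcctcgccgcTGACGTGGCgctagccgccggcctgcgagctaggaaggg

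The 7 genes with the core did not share a direction. Changes were 0.10 for Gclm, 0.42 for Txnrd1, -0.26 for Sod1, -0.17 for Gstm5, -0.41 for Gsta3, 0.28 for Mgst1 and -1.18 for Txndc5, a median of -0.17, and none passed. The 30 tested genes whose windows lack the core had a median of 0.00. A match is a run of letters and not a shown binding site, and elements outside these windows were not searched.

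All 4 tested glutathione peroxidases had a change below 0, none passed, and their median was -0.23. The median was -0.09 without Tslc1-/- replicate 2 and -0.17 without Tslc1+/+ replicate 1. Gpx4 reduces lipid peroxides in membranes and is also built into the midpiece of sperm. It read 6241.8 and 6102.8 in Tslc1+/+ against 5794.0 and 5800.5 in Tslc1-/-, which did not overlap but differed by little. The change was -0.09 with a 95% interval of -0.33 to 0.15 (limma, adjusted p = 0.829). Gpx3, the secreted plasma form, read 1350.0 and 1460.3 against 971.8 and 1379.3, so that 1 Tslc1-/- array lay within the Tslc1+/+ range, and had a change of -0.27 (limma, adjusted p = 0.746), which ran from -0.51 to -0.02 with any 1 array left out. Gpx1, the cytosolic form, was at -0.19 and Gpx2, the form of gut epithelium, at -0.30. Gpx5, the peroxidase that the epididymis secretes onto sperm, was dim on both of its probe sets, the brighter reading 220.4 and 38.8 in Tslc1+/+ against 310.7 and 189.0 in Tslc1-/-. Of the epididymis markers on the array, Lcn5 read 16.1 to 36.1 and Adam7 100.1 to 352.5 over the 4 arrays.

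Peroxiredoxins differed among themselves. Prdx3, which removes hydrogen peroxide in mitochondria, read 889.8 and 623.3 in Tslc1+/+ against 1324.5 and 1239.7 in Tslc1-/-. Both Tslc1-/- arrays were the higher, and the change was 0.74 with a standard error of 0.231 (95% interval 0.23 to 1.26; limma, unadjusted p = 0.00914, adjusted p = 0.239). Prdx4, the form of the endoplasmic reticulum, read 4637.6 and 4899.4 against 3814.0 and 4742.1, which overlapped, with a change of -0.16 (limma, adjusted p = 0.752), or -0.01 without Tslc1-/- replicate 1.

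Prdx2, a cytosolic peroxiredoxin abundant in red cells, gave opposite answers on its tested probe sets. The brighter one, which carries a suffix for possible cross-hybridisation, read 2705.3 and 2864.6 in Tslc1+/+ against 3398.1 and 2937.1 in Tslc1-/-, a change of 0.18 (limma, adjusted p = 0.737). The second, without a suffix, read 988.1 and 796.4 against 277.8 and 284.2. There both Tslc1-/- arrays were the lower, with a change of -1.50 (standard error 0.304, 95% interval -2.18 to -0.83; limma, unadjusted p = 0.000563, adjusted p = 0.0505). This second probe set is singled out after its values were seen. It just missed the threshold here, passed when only probe sets without a suffix were tested (limma, adjusted p = 0.0333), and ranged up to 0.337 over the other settings without a replicate block. One more Prdx2 probe set, too dim to test, read 147.8 and 30.6 against 20.1 and 19.6. None of 3 erythrocyte markers passed, and their summed signal was 2049 and 2471 in Tslc1+/+ against 2826 and 2732 in Tslc1-/-. They did not share a direction: the changes were 0.75 for Hba-a1 and 0.51 for Slc4a1, but -0.53 for Alas2. The part of red cells in either Prdx2 reading was not tested.

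Peroxiredoxin 1 and glutaredoxin 3 are on the array only through 4 probe sets that also name a second gene, so they are outside the 49. Those naming Prdx1 had changes of -0.26 and -0.25, and those naming Glrx3 0.07 and -0.15, none of which passed (limma, adjusted p from 0.475 to 0.866).

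**Figure D2:**
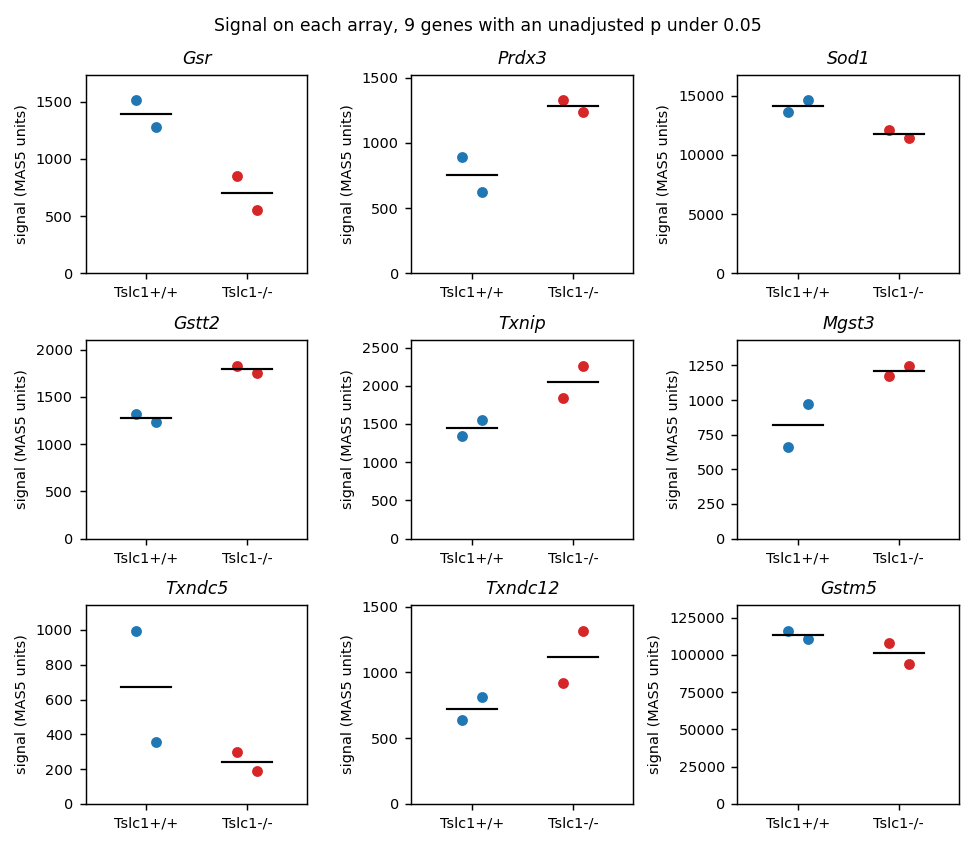
Signal on each of the 4 arrays (y axis from 0, MAS5 units; points are arrays, bars genotype means) for the 9 genes with an unadjusted p under 0.05. The genotypes do not overlap in any panel, but for Txndc5 one Tslc1+/+ array reads 995.0 and the other 353.9, close to the higher Tslc1-/- array at 295.2.

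The thioredoxin family had 13 tested genes, 9 with a change above 0 and 4 below, a median of 0.25 and none that passed. The median was 0.08 without Tslc1+/+ replicate 2 and 0.13 without Tslc1+/+ replicate 1. For the thioredoxins themselves the intervals left out a 2-fold difference. Changes were -0.09 for cytosolic Txn1 (95% interval -0.53 to 0.35) and 0.04 for mitochondrial Txn2 (-0.27 to 0.35). Txnip, which binds thioredoxin and inhibits it, read 1344.1 and 1557.6 in Tslc1+/+ against 1841.7 and 2263.5 in Tslc1-/-. Both Tslc1-/- arrays were the higher, with a change of 0.48 (standard error 0.179; limma, unadjusted p = 0.0222, adjusted p = 0.367). Its second tested probe set read 569.6 and 124.6 against 733.8 and 587.4, a change of 1.10 in the same direction (limma, adjusted p = 0.533).

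Among the reductases, Txnrd3 is the testis form, which carries a glutaredoxin domain and also reduces oxidised glutathione. It read 4501.4 and 4502.9 in Tslc1+/+ against 3257.4 and 4280.7 in Tslc1-/-, so the Tslc1-/- arrays were lower but far apart. The change was -0.27 (95% interval -0.59 to 0.06; limma, adjusted p = 0.61). It lay between -0.46 and -0.07 with any 1 array left out, and a dim second probe set read 0.44. Cytosolic Txnrd1 was at 0.42 and mitochondrial Txnrd2 at 0.39, both with overlapping genotypes.

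Proteins with a thioredoxin domain that fold secreted proteins in the endoplasmic reticulum did not move one way. Txndc5 had the most negative change of the 44 genes, -1.18, with signals of 995.0 and 353.9 in Tslc1+/+ against 295.2 and 188.3 in Tslc1-/- (95% interval -2.27 to -0.09; limma, adjusted p = 0.448). Txndc12 was higher in Tslc1-/-, with 639.0 and 808.5 against 921.0 and 1315.0 and a change of 0.58 (95% interval 0.03 to 1.14; limma, adjusted p = 0.47). Txndc16 was at 0.37. The remaining members, Txndc9, Txndc17, Txnl1 and the spliceosome protein gene Txnl4a, had changes from -0.03 to 0.30. The one tested glutaredoxin, Glrx, read 644.5 and 305.5 in Tslc1+/+ against 540.3 and 507.9 in Tslc1-/-, a change of 0.21 (limma, adjusted p = 0.901) that turned to -0.28 without Tslc1+/+ replicate 2.

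Superoxide dismutases turn superoxide into hydrogen peroxide, which catalase and the peroxidases then remove. Sod1, the copper and zinc enzyme of the cytosol, read 13635.2 and 14595.1 in Tslc1+/+ against 12095.2 and 11397.2 in Tslc1-/-. The Tslc1-/- arrays were the lower, by 1.2-fold on the means, with a change of -0.26 (standard error 0.0918, 95% interval -0.47 to -0.06; limma, unadjusted p = 0.0164, adjusted p = 0.32). Mitochondrial Sod2 lay the other way, with 844.1 and 913.5 against 1053.6 and 1364.2 and a change of 0.43 (95% interval -0.05 to 0.91; limma, adjusted p = 0.56). Extracellular Sod3 was at -0.23 and Cat at 0.12, both with overlapping genotypes.

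Glutathione transferases made up 18 of the 49 genes, of which 15 were tested. The 12 tested soluble ones had a median change of -0.20, 9 below 0 (Gstm5 among them turned above 0 after quantile normalization) and 3 above, and the 3 microsomal ones, which are membrane proteins of another family, a median of 0.57 with all 3 above 0. The microsomal median was 0.35 without Tslc1+/+ replicate 1. No transferase passed, and the difference between these groups was not tested.

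The alpha class, which conjugates products of lipid peroxidation, had 3 tested genes, all below 0 with genotypes that did not overlap, as for 40.0% of all tested probe sets. Their median of -0.41 was -0.21 without Tslc1+/+ replicate 1. Gsta4, which acts on hydroxyalkenals, read 839.7 and 849.6 in Tslc1+/+ against 377.0 and 682.2 in Tslc1-/-. The Tslc1-/- arrays were lower but differed from each other, and the change was -0.68 (95% interval -1.36 to 0.00; limma, unadjusted p = 0.0501, adjusted p = 0.497), or -0.29 without Tslc1-/- replicate 1. Gsta3 was at -0.41. Gsta2 read 1857.0 and 1884.6 against 1726.1 and 1547.3, a change of -0.19 (limma, adjusted p = 0.768). Gsta1 read between 15.4 and 28.7 on the 4 arrays, and was not tested.

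The 5 mu genes lie on chromosome 3 in RefSeq's assembly GRCm38.p6 and their coding sequences are alike, so their probe sets may share signal. Gstm5, the form best known from testis and sperm, read 116059.2 and 110666.4 in Tslc1+/+ against 107881.7 and 94109.1 in Tslc1-/-. The genotypes did not overlap, though the gap between them was small, and the change was -0.17 with a standard error of 0.0756 (limma, unadjusted p = 0.0486, adjusted p = 0.491). It was 0.06 after quantile normalization (limma, adjusted p = 0.723), so the direction on this probe set depends on the normalization. Quantile normalization gives every array the same set of values, so the change of so bright a probe set then reflects its rank. A second Gstm5 probe set, without a suffix, read 26645.5 and 26864.4 against 20482.8 and 22517.0. Its change was -0.32 with a 95% interval of -0.50 to -0.13 (limma, unadjusted p = 0.0032, adjusted p = 0.139), and -0.15 after quantile normalization. A dimmer Gstm5 probe set, with a suffix, read 1564.5 and 1482.2 against 1174.4 and 948.1. Its change was -0.51 (95% interval -0.94 to -0.08; limma, adjusted p = 0.385). One more with a suffix overlapped between the genotypes, at 0.20 (95% interval -0.49 to 0.88). The elongating spermatid markers given at the start were lower on the same arrays, with a median change of -0.51. The brighter Gstm5 probe sets were at -0.17 and -0.32, and the part of those markers' cells in the Gstm5 readings was not tested.

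The other mu genes spread to both sides of 0. Gstm1 read 30379.8 and 29953.8 in Tslc1+/+ against 31523.3 and 29969.8 in Tslc1-/-, a change of 0.03 with the narrow 95% interval of -0.14 to 0.19. Gstm2 was at 0.24, Gstm3 at -0.22 and Gstm6 at -0.46, each without overlap between the genotypes, as for 40.0% of all tested probe sets. Their adjusted p was from 0.521 to 0.673 (limma). On their second probe sets Gstm2 was at -0.46 and Gstm3 at 0.26, opposite to the brighter ones.

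The classes with 1 or 2 genes were as mixed. Gstt2, a theta enzyme, read 1322.3 and 1231.4 in Tslc1+/+ against 1831.8 and 1751.7 in Tslc1-/-, with little spread within a genotype. Its change was 0.47 with a standard error of 0.171 (95% interval 0.09 to 0.85; limma, unadjusted p = 0.0196, adjusted p = 0.347). The related Gstt1 was dim, and read 185.2 and 159.2 against 53.5 and 66.6, so the theta genes lay on opposite sides. Gstp1, the only pi gene here, read 3225.8 and 3319.7 against 2718.0 and 2934.9, a change of -0.21 (95% interval -0.50 to 0.09; limma, adjusted p = 0.673). Gstz1, the zeta enzyme of tyrosine breakdown, read 1516.4 and 1456.6 against 1257.0 and 1447.0, a change of -0.14 (limma, adjusted p = 0.852). The kappa gene Gstk1 read 603.4 and 244.3 against 347.8 and 308.5, a change of -0.22 (limma, adjusted p = 0.921) that became 0.36 without Tslc1+/+ replicate 1. Gsto1 read between 35.0 and 68.4 and was not tested.

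Microsomal transferases were higher on both Tslc1-/- arrays for each of the 3 genes, none of which passed. Over all tested probe sets the genotypes did not overlap, in either direction, for 40.0%. Mgst3 read 661.8 and 970.3 in Tslc1+/+ against 1176.5 and 1247.8 in Tslc1-/-, a change of 0.57 with a standard error of 0.234 (95% interval 0.04 to 1.09; limma, unadjusted p = 0.0361, adjusted p = 0.445). It was 0.31 without Tslc1+/+ replicate 1 and 0.83 without Tslc1+/+ replicate 2. Mgst1 was at 0.28. Mgst2 had the most positive change of the 44 genes, 1.30, but with signals of 225.2 and 33.4 against 321.8 and 326.5 its 95% interval ran from -0.43 to 3.04. A dimmer Mgst2 probe set lay the other way, with a mean of 175 ± 4.6 against 116 ± 30 (SD, n = 2).

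Of 9 genes with at least 2 tested probe sets, 6 had probe sets of opposite sign (Gss, Gstm2, Gstm3, Gstm5, Prdx2 and Txnrd3) and 3 did not (Gstm1, Gstm6 and Txnip). Of the 4 Gstm5 probe sets, 3 were below 0 and 1 above. The 95% intervals of a gene's probe sets were apart for Prdx2, as given above, and for Gstm2, at -0.01 to 0.49 and -0.90 to -0.03.

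**Figure D3:**
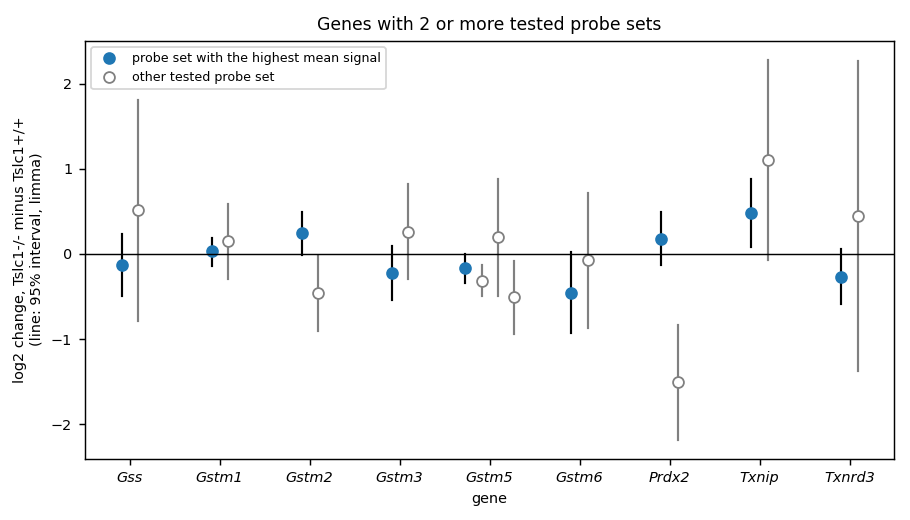
Log2 change (y axis; lines are 95% intervals from limma) on every tested probe set of the 9 genes with more than 1. Filled points are the probe sets with the highest mean signal; for Prdx2 it stands at 0.18 and the other at -1.50.

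Genes that supply or regulate these systems were examined in 5 lists, in which 32 of 51 genes were tested, and 1 passed. It was Selenok, a selenoprotein of the endoplasmic reticulum, which read 3242.2 and 3255.3 in Tslc1+/+ against 1448.6 and 2058.0 in Tslc1-/-. It fell by 0.89 on the log2 scale, with a standard error of 0.179 (95% interval -1.29 to -0.49; limma, adjusted p = 0.0498), at the edge of the threshold. With any 1 array left out its change lay between -1.14 and -0.65, and whether it passed depended on the array. It missed the threshold with 16 added in place of 50 (limma, adjusted p = 0.0511), after quantile normalization (0.0672) and with equal array medians (0.0708). It also missed it with no filter on dim probe sets (0.109) and without the intensity trend (0.542). It passed with 100 added (limma, adjusted p = 0.0468), at a mean signal of at least 500 (0.0445) and over probe sets without a suffix (0.028). With a replicate block it passed too. Of the 7 tested genes for selenoproteins and selenocysteine synthesis 1 fell and none rose, with a median of -0.24. Sephs2, which makes the selenium donor, was at 0.27.

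The other lists held no gene that passed. Of 7 tested NADPH supply genes the smallest p was that of Nnt, the mitochondrial transhydrogenase, which read 1010.8 and 854.4 in Tslc1+/+ against 1249.5 and 1572.2 in Tslc1-/- (change 0.57; limma, adjusted p = 0.364). Whether the Nnt signal stands for a working enzyme was not tested. The median of the 7 genes was 0.13. Slc3a2, a chain of the cystine transporter, was at 0.30 (limma, adjusted p = 0.403) among 3 tested genes of glutathione breakdown and cysteine supply. The 8 tested genes of the Nrf2 system had a median of 0.03, with Nfe2l2, which encodes Nrf2, at 0.30 and the target Hmox1 at 0.23. Srxn1, which repairs overoxidised peroxiredoxins, had the smallest p of that list, with a change of -0.83 (95% interval -2.28 to 0.62; limma, adjusted p = 0.74). It read 503.3 and 631.7 in Tslc1+/+ against 96.4 and 764.2 in Tslc1-/-, so the Tslc1-/- arrays held both the lowest and the highest value and the change below 0 rests on 1 array. Of 7 other thiol and aldehyde defence genes the smallest p was that of Msrb1, a methionine sulfoxide reductase, at 0.38 (limma, adjusted p = 0.768). At an unadjusted p under 0.05 there were 3 of the 32 genes, or 9.38%, against 10.0% of all tested probe sets.

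**Figure D4:**
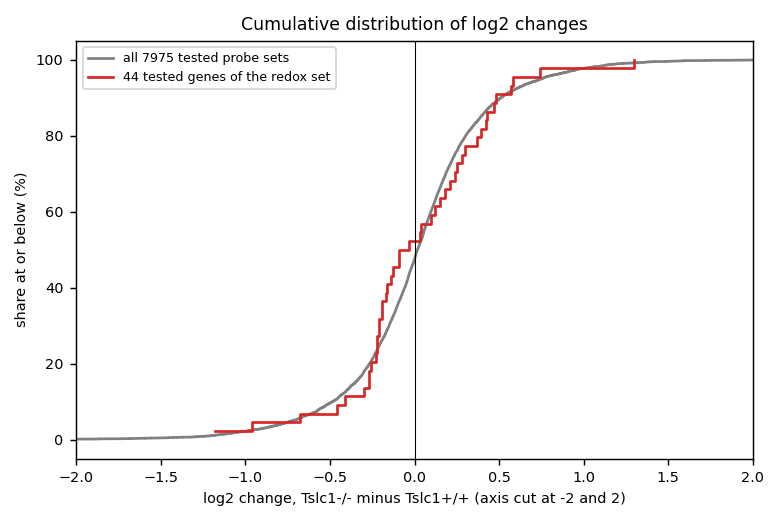
Share of genes or probe sets (y axis, percent) with a log2 change at or below the value on the x axis, for the 44 redox genes and for all 7975 tested probe sets. The medians are -0.06 and 0.02, and the median size of change, regardless of sign, is 0.24 and 0.22.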

How the data were processed

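The deposited file holds a linear intensity per probe set. The authors computed it, per the labels' design text, with Affymetrix Microarray Suite 5.0 (MAS5) and scaled each array to 1 target, so changes in total RNA cannot be seen. A genome build is not given in the sources used here.

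Of 12488 rows, 66 controls were left out. Genes were named from the platform annotation, and all 49 members matched RefSeq (GRCm38.p6) by Entrez identifier. Probe sets with a mean signal of at least 200 over the 4 arrays (7975) were tested as log2(signal + 50) with limma 3.58.1 in R 4.3.3 (lmFit, eBayes with an intensity trend), as a two-sided test of Tslc1-/- minus Tslc1+/+, Benjamini-Hochberg adjusted over all of them. The number of arrays, 2 a genotype, limits the precision; the smallest two-sided p of an exact permutation test is 0.333 at this size. At most 0.0966% of values were identical on any pair of arrays. Intervals are limma's 95% intervals, not adjusted for the number of genes. Scripts were tested on simulated data.

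Named in full are, per class, the genes with the smallest p and the highest mean signal; other values were added after they were seen. Members, lists and tests were chosen with earlier results of these data known.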

Additional observations from a re-analysis of the deposited data

How the results depend on the processing

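Under 14 alternatives the number of the 44 redox genes that passed stayed at 0, except for 1 (Prdx2, then read on its second probe set) over probe sets without a suffix and 1 (Gsr) with a replicate block. Those that passed among all tested probe sets numbered 86, 0 without the intensity trend, where 8.0% had an unadjusted p under 0.05 and 3 of the 44 redox genes did, and 37 to 43 with 1 array left out. The replicate block gave 239 and, for Gsr, adjusted p = 0.0152 (limma). With it the second Prdx2 probe set had adjusted p = 0.00977 and the second Gstm5 one 0.0322 (limma). Deviations from the genotype means were not shared by arrays of the same number (correlation of -0.00119 across probe sets). That correlation cannot tell whether the arrays were paired, so the block was kept as an alternative only. Of 249 values of the 18 named and tested genes under the alternatives, 242 kept their sign and side of the threshold and 6 changed sign: Gstm5 at 0.06 (quantile normalization), Gss at 0.19 and Txnrd3 at 0.09 (median over a gene's probe sets), and with 1 array left out Gss (-0.26 to 0.00), Gstk1 (-0.79 to 0.36) and Glrx (-0.28 to 0.69). The remaining one was Gsr with the block. The cause was not tested. Selenok had adjusted p from 0.028 to 0.542 without the block. Low signal limits what could be seen for the 8 genes with a mean signal of 200 to 500.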
